A study of Mus musculus with 18 samples.

Results

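The 9 genes described here encode enzymes of the methionine cycle and of the one-carbon reactions attached to it: Mat1a, Mat2a, Gnmt, Bhmt, Ahcy, Cbs, Pemt, Mthfd1 and Shmt1. They were chosen by name as enzymes of these reactions, with earlier results of these data known, by a rule that itself uses no measured value, and each symbol was matched to 1 Ensembl gene. All 9 were among the 22524 genes counted in every mouse, and all 9 were among the 13353 genes that passed the filter on low counts and were tested. The data are RNA sequencing libraries of liver, 1 per mouse, from 10 Rps2-A226Y mice (A226Y) and 8 wild-type mice that express Cre recombinase (WT). All 18 mice were female, aged 15 months and of the C57BL/6 strain. Rps2 encodes a protein of the small ribosomal subunit, and the comparison asks how the liver transcriptome differs where a mutation that lowers the accuracy of translation is present. The mutant allele was a heterozygous knock-in behind a loxP-flanked stop cassette, which Cre driven by the ubiquitous CMV promoter removes. Excision was incomplete, so that the A226Y livers were mosaics of cells with the mutant allele and cells in which the cassette still silences 1 Rps2 copy, whereas the WT mice carried Cre and 2 intact copies.

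Methionine is converted to S-adenosylmethionine (SAM), the methyl donor of most methylation reactions, and the methyltransferases that use it release S-adenosylhomocysteine, which is split into adenosine and homocysteine. Homocysteine is either methylated back to methionine, with a methyl group from betaine or from folate, or passed through transsulfuration to cysteine. Liver carries most of this flux in the body, and it has its own SAM synthetase and abundant methyltransferases for glycine and for phosphatidylethanolamine.

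Library totals lay between 23850565 and 62126131 counts, and levels below are given as CPM, which are read counts divided by the library size after TMM scaling in edgeR. The targeted gene Rps2 had between 46.9 and 83.0 CPM in the A226Y mice and between 103.9 and 143.1 CPM in the WT mice, a log2 fold change of −0.73 (SE 0.11, adjusted p = 0.000772), and all 10 A226Y values lay below every WT value. The 7 hepatocyte markers summed to between 71604 and 147052 CPM in A226Y and between 92913 and 182249 CPM in WT. The 8 periportal markers summed to between 10684 and 14957 CPM in A226Y (median 13243) and between 7806 and 12608 CPM in WT (median 10492), with 6 of 8 log2 fold changes above 0, 1 called higher (Cps1, 0.55) and 1 called lower (Cyp2f2, −0.58). The periportal sum was higher in A226Y (exact permutation p = 0.00343, not adjusted over the 9 marker lists). Most of that sum came from Pck1 (mean 4773 CPM in A226Y, 3925 CPM in WT) and Cps1 (4662 and 3192 CPM). Pck1 was not called (0.28, adjusted p = 0.0953, edgeR). The 10 pericentral markers summed to between 4675 and 11022 CPM in A226Y (median 9606) and between 8451 and 14089 CPM in WT (median 10673), with 3 of 10 log2 fold changes above 0 and 3 called lower (exact permutation p of the sum = 0.0777). The 7 Kupffer cell markers summed to between 255 and 1060 CPM in A226Y (median 353) and between 387 and 785 CPM in WT (median 570.5), with 1 called lower (Clec4f, −0.65, adjusted p = 0.0261), 1 of 7 with a log2 fold change above 0 and an exact permutation p of the sum of 0.05. Also called were the hepatocyte marker Apob (0.29, adjusted p = 0.0329) and 2 of 6 stellate cell markers, Col1a1 (−0.77, adjusted p = 0.0162) and Col3a1 (−0.60, adjusted p = 0.00516). No marker was at 0 in all mice, and the part of these zonal and cell type differences in the results below was not tested. Sums of CPM weigh the most abundant genes most, and Alb made up most of the hepatocyte sum and Cyp2e1 most of the pericentral sum. In bulk tissue, fewer cells of a type and less RNA per cell cannot be told apart. A pair of mice stood at the end of the range for several of the 9 genes: WT 21 had the lowest level of 4 (Mat1a, Gnmt, Ahcy and Cbs) and the highest Pemt level, with the lowest periportal sum of all mice, and A226Y 29 had the lowest level of 3 (Pemt, Mthfd1 and Shmt1), the lowest hepatocyte and pericentral sums and the highest Kupffer sum. Values without them are given beside the results that they move most.

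Of the 9 genes, 1 was higher in A226Y (Mat1a) and 2 were lower (Pemt and Shmt1) at an adjusted p under 0.05 in edgeR's quasi-likelihood test, and 6 did not pass. The called share was 33.3%, beside 14.3% of all genes tested, of which 7.27% were called higher and 7.03% lower. The median size of the log2 fold change was 0.31 over the 9 genes and 0.14 over all genes tested. Only for Pemt did the 10 A226Y values and the 8 WT values not overlap, which over all genes tested was seen for 0.352% with A226Y higher and for 0.285% with A226Y lower. With 4 surrogate variables as covariates in edgeR, 0 of the 9 genes passed (4 at an unadjusted p under 0.05), and 75 genes passed in the whole table in place of 1910. DESeq2 and limma-voom each called 4 of the 9, with Cbs as the addition.

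**Figure D1:**
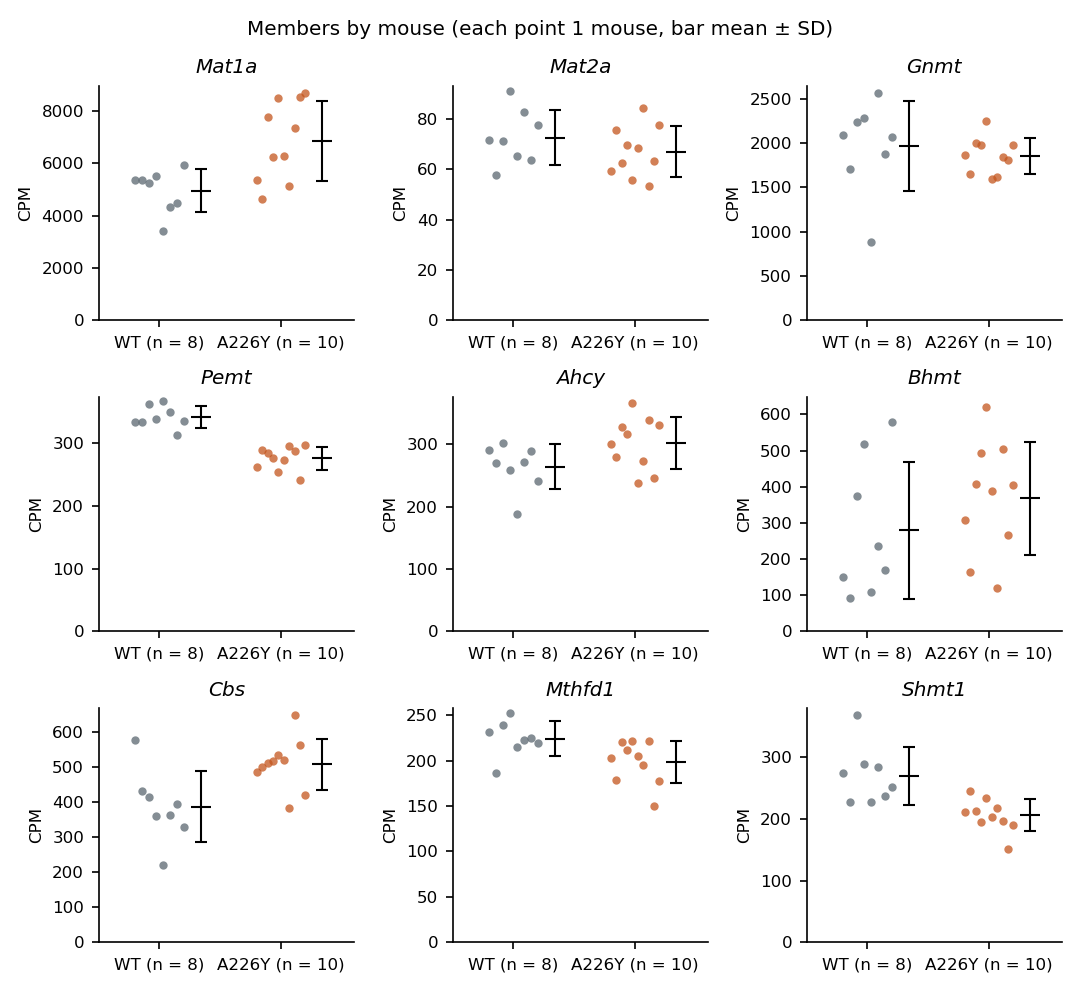
Level of each of the 9 genes in each mouse, in CPM on an axis that starts at 0, with 1 point per mouse (8 WT in grey, 10 A226Y in orange) and the mean ± SD as a bar. The Pemt values of the 2 genotypes do not overlap, 7 of 10 A226Y mice lie above every WT mouse for Mat1a, and 8 of 10 lie below every WT mouse for Shmt1.

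Of the SAM synthetase genes, Mat1a was higher in A226Y and Mat2a did not pass the test. Mat1a (ENSMUSG00000037798, chr14:41105035-41124412 of GRCm38, plus strand) encodes the SAM synthetase subunit of differentiated hepatocytes. Its level was 4644, 6809.9 and 8690.2 CPM in the lowest, median and highest A226Y mouse and 3402, 5296 and 5927 CPM in the corresponding WT mice. The A226Y mice were higher as a group, with 7 of 10 above every WT mouse and 3 of 8 WT mice below every A226Y mouse. The mean was 6852 ± 1517 CPM (SD, n = 10) against 4953 ± 820 CPM (SD, n = 8), a log2 fold change of 0.47 (SE 0.14, adjusted p = 0.0271, edgeR quasi-likelihood) or 38.3% more, and the exact permutation test gave p = 0.00651. The call was lost without WT 21 (0.40, adjusted p = 0.055), WT 24 (0.44, adjusted p = 0.0575) or A226Y 32 (0.42, adjusted p = 0.0507), without both WT 21 and A226Y 29 (0.37, adjusted p = 0.0586), and with surrogate variables (0.19, adjusted p = 0.304).

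Mat2a (ENSMUSG00000053907, chr6:72432799-72439558, minus strand) encodes the synthetase subunit found outside the liver and in dividing hepatocytes. It was measured at 53.5, 65.8 and 84.4 CPM in the lowest, median and highest A226Y mouse and at 57.7, 71.4 and 91.2 CPM in WT. The groups overlapped over nearly their whole range. The log2 fold change was −0.12 (SE 0.10, adjusted p = 0.447), with a 95% interval from −0.30 to 0.07, and it ranged from −0.16 (without A226Y 22) to −0.06 (without WT 14) with 1 mouse left out. With surrogate variables the direction turned, to 0.078 (adjusted p = 0.803). The exons of Mat2a share 508 bases with those of Particl on the opposite strand, and the strand used in counting is not given in the sources used here.

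Both genes were set against each other within each mouse, as a log2 ratio that does not depend on scaling between libraries. The log2 ratio of Mat1a over Mat2a averaged 6.65 ± 0.47 (SD, n = 10) in A226Y and 6.09 ± 0.29 (SD, n = 8) in WT. It ranged from 5.93 to 7.25 in A226Y and from 5.70 to 6.54 in WT, and 5 of 10 A226Y mice lay above every WT mouse. The difference of 0.57 had p = 0.0104 in the exact permutation test and an adjusted p of 0.0312 over the 3 ratios examined. That adjusted p rose to between 0.0509 and 0.0654 when A226Y 7, 15, 23 or 29 or WT 14, 21, 24 or 28 was left out, and to 0.11, with a difference of 0.47, without both WT 21 and A226Y 29.

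Of the methyltransferases that consume SAM, Pemt passed the test and Gnmt did not. Gnmt (ENSMUSG00000002769, chr17:46725664-46729168, minus strand) encodes glycine N-methyltransferase, which turns glycine into sarcosine and is regarded as the buffer of hepatic SAM. It stood at 1591, 1853 and 2246 CPM in the lowest, median and highest A226Y mouse and at 887, 2079 and 2559 CPM in WT, and the A226Y range lay inside the WT range. The log2 fold change was −0.08 (SE 0.14, adjusted p = 0.744), with a 95% interval from −0.35 to 0.19, and without WT 21, the lowest mouse, it was −0.19 (adjusted p = 0.177).

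Pemt (ENSMUSG00000000301, chr11:59970614-60046489, minus strand) encodes phosphatidylethanolamine N-methyltransferase, which makes phosphatidylcholine by successive methylations. Its level was 241, 279.8 and 297 CPM in the lowest, median and highest A226Y mouse and 313, 337 and 367 CPM in WT. Every A226Y mouse was below every WT mouse. The mean was 276 ± 18.7 CPM (SD, n = 10) against 342 ± 17.4 CPM (SD, n = 8). Pemt fell by 19.3%, a log2 fold change of −0.31 (SE 0.06, adjusted p = 0.0025, edgeR quasi-likelihood), and the exact permutation test gave p = 2.29e-05, the smallest value that its 43758 divisions of the mice can give. The spread between mice was also the smallest of the 9 genes, with a coefficient of variation of 6.77% in A226Y and 5.10% in WT. The difference kept its call without any 1 mouse (log2 fold change −0.33 to −0.29) and was −0.28 (adjusted p = 0.0537) with surrogate variables. The log2 ratio of Gnmt over Pemt averaged 2.75 ± 0.21 (SD, n = 10) in A226Y and 2.47 ± 0.50 (SD, n = 8) in WT, and the difference of 0.28 did not pass (exact permutation p = 0.0941, adjusted p = 0.141 over 3 ratios). Without WT 21, whose ratio of 1.27 lay apart, that difference was 0.11 (exact permutation, adjusted p = 0.397).

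Ahcy (ENSMUSG00000027597, chr2:155059310-155074497, minus strand) encodes the hydrolase that removes S-adenosylhomocysteine, the product inhibitor of methyltransferases. Its level was 238, 309 and 367 CPM in the lowest, median and highest A226Y mouse and 189, 271 and 302 CPM in WT. The groups overlapped, although 5 of 10 A226Y mice were above every WT mouse. The log2 fold change of 0.19 (SE 0.10) did not pass (unadjusted p = 0.0576, adjusted p = 0.184). Its approximate 95% interval, which uses the normal quantile and is narrower than the test allows, ran from 0.01 to 0.38. With surrogate variables the log2 fold change was 0.056 (adjusted p = 0.84).

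Homocysteine is used by both Bhmt and Cbs. Bhmt (ENSMUSG00000074768, chr13:93616675-93637961, minus strand) encodes the betaine-dependent enzyme that remethylates it. Bhmt varied most between mice, at 119.8, 397 and 622 CPM in the lowest, median and highest A226Y mouse and at 92.3, 204 and 579 CPM in WT. The highest mouse had 6.74 times the level of the lowest, and the coefficient of variation was 42.4% in A226Y and 67.8% in WT. The log2 fold change of 0.40 (SE 0.36, adjusted p = 0.485) had a 95% interval from −0.31 to 1.11, so that neither a rise of that size nor a small fall could be told from the spread between mice. Leaving out 1 mouse moved it between 0.27 (without WT 6) and 0.64 (without WT 33), and with surrogate variables it was 0.76 (adjusted p = 0.0935). The exons of Bhmt share 187 bases with Gm15622 on the opposite strand.

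Cbs (ENSMUSG00000024039, chr17:31608894-31637238, minus strand) encodes cystathionine beta-synthase, the first enzyme of transsulfuration. Its level was 383, 514 and 647 CPM in the lowest, median and highest A226Y mouse and 220.3, 379 and 577 CPM in WT. On the log2 scale, each of the 10 A226Y values exceeded the mean of the WT mice. In CPM, A226Y 22 (382.8) lay below the WT mean of 386.5. Of the 8 WT mice, 4 were below every A226Y mouse. The log2 fold change was 0.39 (SE 0.13, 95% interval 0.13 to 0.66), and the adjusted p of 0.0544 just missed the threshold (unadjusted p = 0.0083, exact permutation p = 0.00642). Cbs passed with library size only (0.43, adjusted p = 0.0358), with DESeq2 (0.40, adjusted p = 0.0233), with limma-voom (0.42, adjusted p = 0.042) and without WT 4 (0.50, adjusted p = 0.0122), WT 6 (0.42, adjusted p = 0.0446) or A226Y 22 (0.43, adjusted p = 0.0388), while its difference was 0.29 (adjusted p = 0.0804) without both WT 21 and A226Y 29 and 0.22 (SE 0.17, adjusted p = 0.572) with surrogate variables. Cbs lies 6.89 Mb and Gnmt 22.004 Mb from the targeted Rps2 on chromosome 17, and the part of DNA carried along with the knock-in was not tested. The log2 ratio of Bhmt over Cbs averaged −0.60 ± 0.65 (SD, n = 10) in A226Y and −0.73 ± 1.09 (SD, n = 8) in WT, a difference of 0.13 (exact permutation p = 0.764) that turned negative without WT 4 (−0.045) or WT 6 (−0.089).

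**Figure D2:**
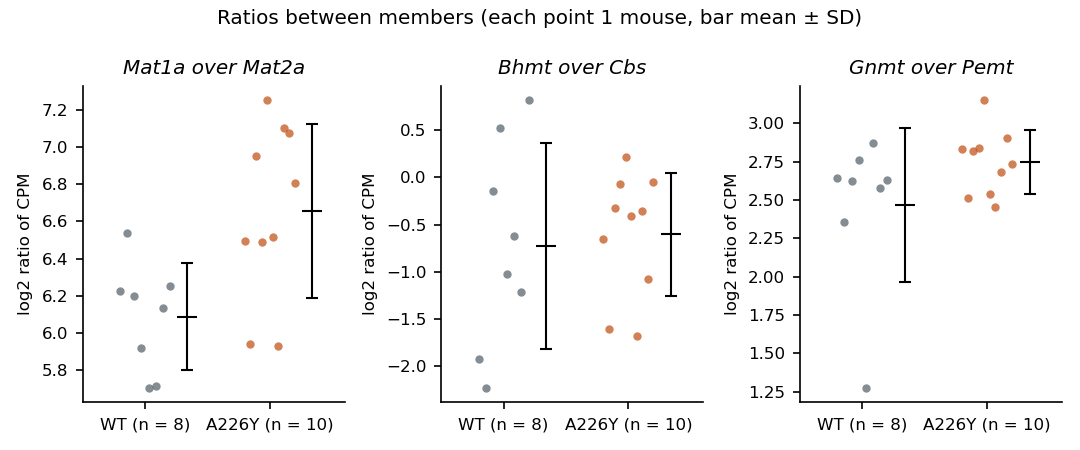
Log2 ratio of CPM between 2 genes of the same mouse, for Mat1a over Mat2a, Bhmt over Cbs and Gnmt over Pemt, with 1 point per mouse (8 WT in grey, 10 A226Y in orange) and the mean ± SD as a bar. The vertical axes do not start at 0. The Mat1a over Mat2a ratio averages 6.65 in A226Y and 6.09 in WT, and 1 WT mouse lies apart at 1.27 in the Gnmt over Pemt ratio.

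The folate side is represented by Mthfd1 and Shmt1. Mthfd1 (ENSMUSG00000021048, chr12:76255298-76319803, plus strand) encodes the cytosolic trifunctional enzyme that interconverts folate one-carbon forms. Its level was 149.99, 204 and 222 CPM in the lowest, median and highest A226Y mouse and 187, 224 and 253 CPM in WT. The groups overlapped, with 3 of 10 A226Y mice below every WT mouse and 5 of 8 WT mice above every A226Y mouse. The log2 fold change of −0.18 (SE 0.08, 95% interval −0.33 to −0.02) did not pass after adjustment (adjusted p = 0.132, exact permutation p = 0.0264). Its exons share 37 bases with Gm47525 on the opposite strand.

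Shmt1 (ENSMUSG00000020534, chr11:60788104-60811718, minus strand) encodes cytosolic serine hydroxymethyltransferase, which moves a carbon from serine to folate. Its level was 152, 208 and 246 CPM in the lowest, median and highest A226Y mouse and 227, 264 and 369 CPM in WT. The overlap was small, with 8 of 10 A226Y mice below every WT mouse. The mean was 206 ± 26.0 CPM (SD, n = 10) against 271 ± 46.9 CPM (SD, n = 8). Shmt1 fell by 23.8%, a log2 fold change of −0.39 (SE 0.10, adjusted p = 0.0125, edgeR quasi-likelihood, and exact permutation p = 0.000503). It passed without any 1 mouse (−0.43 to −0.32) and not with surrogate variables (−0.22, adjusted p = 0.262). Its exons share 184 bases with Smcr8 on the opposite strand, for which the log2 fold change was −0.04 (adjusted p = 0.795).

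**Figure D3:**
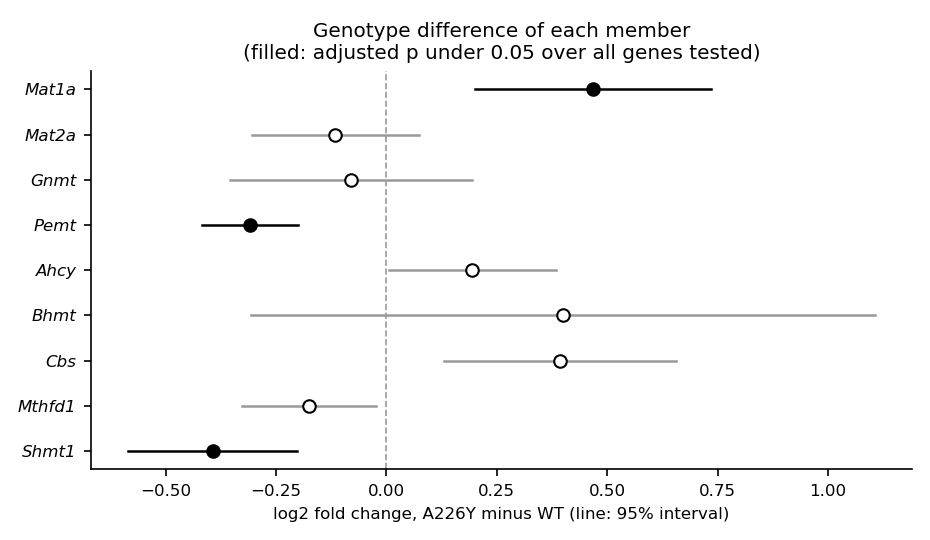
Log2 fold change of each gene (A226Y minus WT, 10 against 8 mice, edgeR) as a point with its 95% interval as a line, filled where the adjusted p over all genes tested is under 0.05. Mat1a is filled at 0.47, Pemt at −0.31 and Shmt1 at −0.39, and the widest interval is that of Bhmt, from −0.31 to 1.11.

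Promoter windows of the 2 genes that fell, both on chromosome 11, are shown at their RefSeq starts. On the minus strand, the gene spans given above begin at 60046489 (Pemt) and 60811718 (Shmt1). Each window shown lies inside its gene's span, so the DNA ahead of those positions is not shown. The RefSeq sequences (GRCm38.p6, minus strand, printed 5′ to 3′) hold 250 bases before and 50 after the annotated start, and Pemt has 2 annotated starts, with windows at chr11:60040139-60040438 and chr11:60036956-60037255, while the window of Shmt1 is at chr11:60811216-60811515. Capitals mark matches on either strand to the GC box GGGCGG (reverse complement CCGCCC) and the CCAAT box CCAAT (reverse complement ATTGG).
Pemt, first start: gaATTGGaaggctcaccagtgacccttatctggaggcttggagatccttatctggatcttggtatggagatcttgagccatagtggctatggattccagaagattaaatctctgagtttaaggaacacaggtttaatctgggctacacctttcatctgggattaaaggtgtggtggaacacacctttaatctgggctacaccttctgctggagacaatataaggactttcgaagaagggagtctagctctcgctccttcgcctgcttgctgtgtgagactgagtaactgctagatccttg
Pemt, second start: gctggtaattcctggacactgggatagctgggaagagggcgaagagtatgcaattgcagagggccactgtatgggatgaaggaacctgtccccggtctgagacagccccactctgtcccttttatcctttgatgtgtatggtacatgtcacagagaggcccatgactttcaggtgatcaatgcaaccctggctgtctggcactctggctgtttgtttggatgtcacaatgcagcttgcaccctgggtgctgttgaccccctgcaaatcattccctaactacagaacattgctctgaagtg
Shmt1: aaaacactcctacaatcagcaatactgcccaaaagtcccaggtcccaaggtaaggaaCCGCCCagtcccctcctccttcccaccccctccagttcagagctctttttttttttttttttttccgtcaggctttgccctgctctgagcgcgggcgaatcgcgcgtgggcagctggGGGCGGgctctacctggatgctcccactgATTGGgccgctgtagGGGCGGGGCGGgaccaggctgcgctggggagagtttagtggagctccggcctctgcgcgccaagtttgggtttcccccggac

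These 3 windows had little in common in base composition. The Shmt1 window was 60.7% G and C with 17 CpG dinucleotides, and the Pemt windows were 46.3% and 51.7% G and C with 3 and 2 CpG dinucleotides, beside medians of 52.7% and 7 over 32851 promoters. The Shmt1 window held 4 GC box matches, at −193, −76, −32 and −27 from the start, of which the last 2 overlap by 1 base, and 1 CCAAT box match at −47. The first Pemt window held 1 CCAAT box match at −248, and the second held no match to any of the 7 motifs searched.

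Promoter windows were found for 8 of the 9 genes, as 9 entries, and were searched on both strands. The CCAAT box was in 8 of 9 entries, beside 37.4% of all promoters, and the GC box GGGCGG was in 5 of 9, beside 35.7%. The TATA box TATAAA was in 1 (Mat2a, at −32), beside 13.6%. The E-box CACGTG was in 1 (Cbs, at −229), beside 7.15%, and the SREBP element TCACNCCAC was in 1 (Gnmt, at −244), beside 1.24%. The amino acid response element TGATGNAA (3.97% of all promoters) and the HNF4 element TGNACTTTG (1.41%) were in 0 of 9. A match is a description of the letters and no evidence of binding.

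Levels of different genes can be compared only per length, and on the scale of CPM per kilobase of exon the 9 genes spanned a wide range in WT. The order of mean levels was Gnmt (1628 ± 419, SD, n = 8), Mat1a (1428 ± 236), Pemt (162 ± 8.28), Ahcy (94.1 ± 12.8), Shmt1 (69.7 ± 12.1), Cbs (51.6 ± 13.5), Mthfd1 (50.4 ± 4.34), Bhmt (48.5 ± 32.9) and Mat2a (16.2 ± 2.43). The ranges of neighbours in that order overlapped except between Mat1a and Pemt and between Pemt and Ahcy. In A226Y the order differed, with Mat1a first (1976 ± 437, SD, n = 10), Gnmt second (1540.2 ± 169) and Shmt1 in place 7 (53.1 ± 6.69), below Cbs (67.8 ± 9.68) and Bhmt (63.9 ± 27.1).

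**Figure D4:**
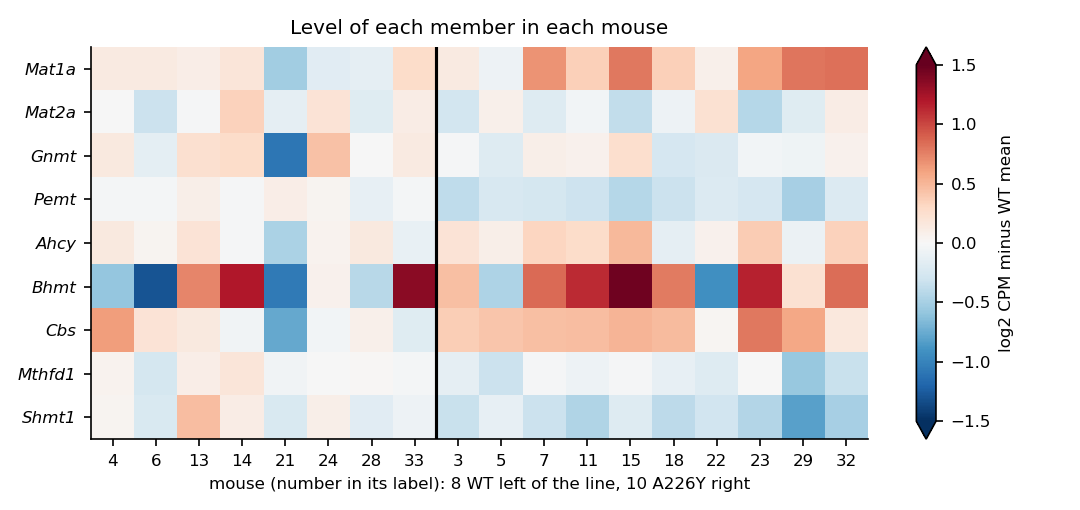
Level of each of the 9 genes in each mouse as log2 CPM minus the WT mean of that gene (colour scale clipped at 1.5 in either direction), with the 8 WT mice left of the line and the 10 A226Y mice right of it, named by the number in their label. The Pemt, Mthfd1 and Shmt1 values are below the WT mean in all 10 A226Y mice, and the WT mouse 21 is below it for 8 of the 9 genes, all but Pemt.

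How the 9 genes varied together was examined over the 18 mice after each genotype's mean was removed. Of 36 pairs, 26 had a Pearson r above 0, and r ranged from −0.42 to 0.73. With permutation tests, 0 passed after adjustment over the 36 pairs with either coefficient, while 8 (Pearson) and 9 (Spearman) had an unadjusted permutation p under 0.05. The highest was that of Gnmt and Ahcy, consecutive steps in the use of SAM, with r = 0.73 (permutation p = 0.00152, adjusted p = 0.0547) and rho = 0.63 (permutation p = 0.00485, adjusted p = 0.074). It was 0.83 within A226Y and 0.81 within WT, and 0.63 without the 2 mice farthest from the median of Gnmt (WT 21 and WT 24).

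Over the same 18 mice and 11940 genes whose mean reached 1 CPM, genes most like each of the 9 were also listed, by Pearson r after removal of the genotype means and with no test. These were Asl (r = 0.93) and Gpx3 (0.91) for Mat1a, Bhlhe40 (0.78) and Metap1d (0.72) for Mat2a, Ass1 (0.78) and Btf3l4 (0.77, but 0.16 within A226Y and 0.90 within WT) for Gnmt, and Mpv17l (0.93) and Pxmp2 (0.90) for Bhmt. They were Slc38a4 (0.90) and 1110012L19Rik (0.78) for Ahcy, Tdo2 (0.83) and Cdo1 (0.78) for Cbs, Tfg (0.82) and Cacul1 (0.78) for Pemt, Svip (0.90) for Mthfd1, and Pcca (0.86) and Serpina1d (0.86) for Shmt1. The values share library preparation and depth within each mouse.

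The other genes of these pathways were taken from 7 lists with 92 genes, of which 91 were tested. Of these, 7 were called higher and 13 lower, which is 21.98% beside 14.3% of all genes tested. Among 16 further genes of the methionine cycle and methionine salvage, 12.5% were called, which is below the 14.3% of all genes tested. Of the 16, 0 were called higher (2 at an unadjusted p under 0.05, and 1 called with DESeq2). In that list 2 were called lower, the salvage enzymes Enoph1 (−0.28, SE 0.09, adjusted p = 0.041) and Adi1 (−0.35, SE 0.11, adjusted p = 0.0443), and the list's median was 0.03. That count of 2 fell to 1 or 0 when any 1 mouse other than A226Y 5, WT 6 or A226Y 29 was left out. A list of 7 genes covered the regulation of Mat2a mRNA and the pathway of SAM sensing (below, the Mat2a regulators). Of these, 0 were called by edgeR, DESeq2 or limma-voom, and 1 had an unadjusted p under 0.05 in each. Ythdc1, a reader of methylated adenosine in RNA and the gene of that list with the most reads, had a log2 fold change of 0.11 (SE 0.07, adjusted p = 0.351).

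Folate genes moved in both directions. Of 24 genes listed, 23 were tested, with 2 called higher, 4 lower and a median of −0.06. The called share was 26.1%, beside 14.3% of all genes tested. Shmt2, the mitochondrial counterpart of Shmt1, was at 139.5, 149.6 and 169.5 CPM in the lowest, median and highest A226Y mouse and at 169.95, 204 and 234 CPM in WT. The A226Y and WT ranges did not overlap, and Shmt2 fell by 0.43 on the log2 scale (SE 0.07, adjusted p = 0.00159). The proton-coupled folate transporter Slc46a1 fell by 0.37 (SE 0.09, adjusted p = 0.00804), and Mthfs, which returns 5-formyltetrahydrofolate to the pool, fell by 0.30 (SE 0.07, adjusted p = 0.0103). Gldc, the glycine decarboxylase of the mitochondrial glycine cleavage system, rose by 0.52 (SE 0.12, adjusted p = 0.00995). Slc25a32, the mitochondrial folate carrier, was also called higher (0.43, adjusted p = 0.0121).

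The branches that feed on or lead away from the cycle come next. Among 8 genes of choline oxidation and methyl-glycine use, 1 was called higher and 2 lower, with a median of −0.11. The called share was 37.5%, beside 14.3% of all genes tested. Sardh, which oxidizes the sarcosine made by Gnmt, was at 578, 771 and 913 CPM in the lowest, median and highest A226Y mouse and at 753, 1191 and 1363 CPM in WT, so that the groups overlapped in part. Sardh fell by 0.57 on the log2 scale (SE 0.11, adjusted p = 0.00359), and the peroxisomal sarcosine oxidase Pipox fell by 0.40 (SE 0.09, adjusted p = 0.007). Etfdh, which passes electrons from such dehydrogenases to the respiratory chain, rose by 0.31 (SE 0.10, adjusted p = 0.0474), a call that was lost when any 1 mouse other than WT 6 or A226Y 29 was left out.

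Among 12 genes of transsulfuration and cysteine use, 1 was called higher and 2 lower, with a median of −0.06. The called share was 25%, beside 14.3% of all genes tested. Cth, cystathionine gamma-lyase, which acts directly after Cbs, was at 434, 823 and 1243 CPM in the lowest, median and highest A226Y mouse and at 258, 453 and 633 CPM in WT. The groups overlapped in part, and Cth rose by 0.81 on the log2 scale (SE 0.21, adjusted p = 0.0139). Sqor (−0.52, SE 0.10, adjusted p = 0.00349) and Tst (−0.43, SE 0.09, adjusted p = 0.00509), both of mitochondrial sulfide oxidation, were lower.

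Of 12 other methyltransferases for small molecules, 3 were called lower and 0 higher (0 at an unadjusted p under 0.05 in edgeR, and 1 in DESeq2). Their median was −0.12, and the called share was 25%, beside 14.3% of all genes tested. Gamt, which completes creatine from guanidinoacetate, was at 21.9, 79.0 and 90.3 CPM in the lowest, median and highest A226Y mouse and at 87.1, 192 and 284 CPM in WT. The groups nearly separated, and Gamt fell by 1.48 on the log2 scale (SE 0.27, adjusted p = 0.00282). Mettl7a1 was lower too (−0.55, SE 0.10, adjusted p = 0.00295).

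Phosphatidylcholine is also made from choline through CDP-choline, without SAM. The CDP-ethanolamine branch makes phosphatidylethanolamine, the substrate of Pemt. The phosphatidylcholine synthesis list holds 13 genes of both branches and of linked choline and phospholipid steps. Of these, 3 were called higher and 0 lower (1 at an unadjusted p under 0.05 in edgeR, DESeq2 and limma-voom), with a median of 0.04. The called share was 23.1%, beside 14.3% of all genes tested. These were the ethanolamine kinase Etnk1 (0.37, SE 0.07, adjusted p = 0.00337), the ethanolamine phosphotransferase Selenoi (0.32, SE 0.06, adjusted p = 0.003) and the choline kinase Chkb (0.34, SE 0.09, adjusted p = 0.0185). With surrogate variables, the count called was 1 in this list, 1 in the methyltransferase list and 0 in the 5 other lists.

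**Figure D5:**
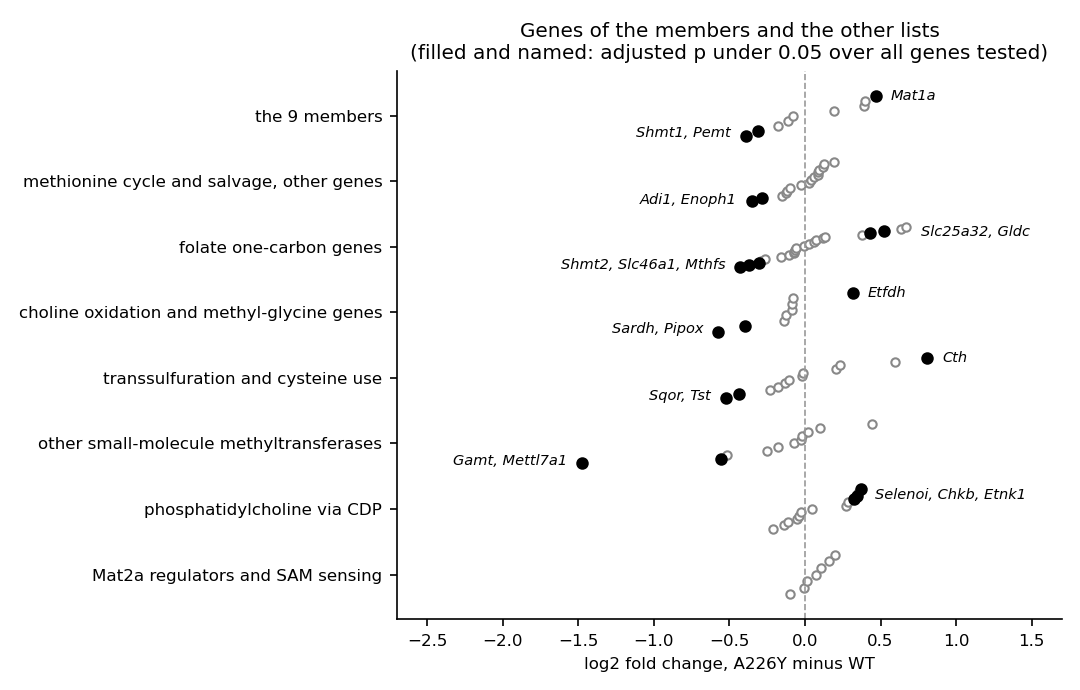
Log2 fold change (A226Y minus WT) of the 9 genes and of the genes reported from the 7 other lists, 1 point per gene, spread vertically within a list in order of value, filled and named where the adjusted p over all genes tested is under 0.05. Gamt lies farthest to the left at −1.48 and Cth farthest to the right at 0.81.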

How the data were processed

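Each of 10 A226Y and 8 WT livers gave 1 RNA library. For every mouse the authors deposited raw counts, in whole numbers, for Ensembl gene identifiers, which had not been normalized. The paper's methods name RSEM for quantification, whereas the submitters' processing notes list bcl2fastq, fastp, STAR, featureCounts, MultiQC and the GRCm38 build, and which of them produced the counts is not given in the sources used here. Strand was not stated either, so overlapping genes on opposite strands were treated as uncertain. Symbols, positions and exon lengths were taken from GENCODE on GRCm38, and promoter sequences from RefSeq.

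A gene was tested where 50% or more of the A226Y mice, or of the WT mice, had 10 counts or more (13353 of 22524 genes). Counts were scaled with TMM and compared with the two-sided quasi-likelihood test of edgeR 4.0.16 in R 4.3.3, with no covariate and with Benjamini-Hochberg adjustment over all genes tested. A gene was called where its adjusted p was under 0.05. Approximate 95% intervals are the log2 fold change ± 1.96 SE. Single values were also compared with exact permutation tests of log2 CPM (prior count 2) over all 43758 divisions into 10 and 8 mice, and correlations used 100000 resamples. With at least 23850565 counts per mouse and at least 1790 reads for each of the 9 genes in each mouse, the spread between mice sets the precision. No 2 mice of one genotype agreed within sampling noise (lowest chi-square per degree of freedom 20.1).

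Named were the 9 genes, in each other list up to 4 called genes with the smallest adjusted p (or the gene with the most reads where none was called), the 2 genes most like each of the 9, and Rps2. Slc25a32, Smcr8, the single marker genes and the genes between Pemt and Shmt1 were added after their values were seen. The 9 genes and the lists were chosen with earlier results of these data known, so their counts are descriptions. Alternatives were other scalings, filters and tests (DESeq2 1.42.0, limma-voom 3.58.1), 4 surrogate variables (sva 3.50.0), length and GC offsets, prior count 0.5 and leaving out each mouse. The procedures were tested on simulated data. A few genes that the list counts include are not reported here one by one. Protein and metabolite levels were not analysed here.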

Additional observations from a re-analysis of the deposited data

Results flagged for a closer look

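In 24 groups of values examined (the 9 genes and 3 ratios in each genotype), 2 held a mouse far from the others of its genotype, where chance alone flags about 1 in 20. Shmt1 was 369 CPM in WT 13, with the nearest other WT mouse at 289.6 CPM. The log2 ratio of Gnmt over Pemt was 1.27 in WT 21, with the nearest other WT mouse at 2.36. The fold change of Shmt1 stayed past the threshold without WT 13, as without every other single mouse.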

How the results depend on the processing

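The 4 surrogate variables changed most. With them Mat1a was 0.19 (adjusted p = 0.304), Pemt −0.28 (adjusted p = 0.0537) and Shmt1 −0.22 (adjusted p = 0.262), Mat2a reversed from −0.12 to 0.078 (adjusted p = 0.803), Bhmt was 0.76, Cbs 0.22, Ahcy 0.056, Gnmt −0.10 and Mthfd1 −0.12 (none past the threshold, adjusted p 0.0935 to 0.84), and the counts were 0 higher and 0 lower for the 9 genes, 0 lower for the other methionine cycle genes, 0 and 0 for folate, choline oxidation and transsulfuration, 1 lower for the methyltransferases and 1 higher for phosphatidylcholine synthesis. Over all genes 42 were higher and 33 lower. Cbs passed with library size only (0.43), DESeq2 (0.40) and limma-voom (0.42), which each gave 2 of the 9 genes higher. The other methionine cycle genes had 2 higher with library size only and 1 with DESeq2 or the length offset, and 0 lower with library size only, without the filter or with the length offset and 1 with the GC offset. The choline oxidation list had 0 higher without the filter, with limma-voom and with either offset, the transsulfuration list had 2 higher with the length offset, and the Mat2a regulators had 1 higher with library size only. Library size only shifted the median of all genes to 0.04 and the share of higher calls from 50.8% to 67.9%. The causes were not tested.

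Without WT 21 and A226Y 29, an alternative chosen after seeing the data, Mat1a was 0.37 and the log2 ratio of Mat1a over Mat2a differed by 0.47, both no longer past the threshold, 0 of the 9 genes were higher, and the other methionine cycle genes had 1 higher and 1 lower.

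With each mouse left out in turn, log2 fold changes were 0.40 to 0.52 for Mat1a, 0.31 to 0.50 for Cbs, −0.33 to −0.29 for Pemt and −0.43 to −0.32 for Shmt1. The ratio of Mat1a over Mat2a ranged from 0.50 to 0.65 and that of Bhmt over Cbs from −0.089 to 0.35, reversed without WT 4 (−0.045) or WT 6 (−0.089), and that of Gnmt over Pemt from 0.11 (without WT 21) to 0.34. Among the other genes, Mat2a ranged from −0.16 (without A226Y 22) to −0.06 (without WT 14), Gnmt from −0.19 (without WT 21) to −0.017 (without WT 24), Bhmt from 0.27 (without WT 6) to 0.64 and Ahcy from 0.14 (without WT 21) to 0.23. The counts ranged from 0 to 2 higher for the 9 genes (2 without WT 4, WT 6 or A226Y 22, and 0 without WT 21, WT 24 or A226Y 32), from 0 to 1 higher and 0 to 2 lower for the other methionine cycle genes, from 0 to 1 higher for choline oxidation, from 0 to 1 lower for phosphatidylcholine synthesis (1 without WT 33) and from 0 to 1 higher for the Mat2a regulators (1 without A226Y 15). Over all genes, the calls fell to 633 higher and 622 lower without WT 14 and to 641 higher without WT 24. No paired analysis was made, because the sample labels name no litter or other pairing of the mice.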

Other observations

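Pemt and Shmt1, the 2 of the 9 genes that fell, lie on the same chromosome with 742 kb between them, and the genes in between were looked at after these values were seen. Of 14 genes listed there, 13 were tested, with 2 called lower and 0 higher in edgeR, beside 14.3% called over all genes tested, so that the count is near the background, and their median log2 fold change was −0.03. The called genes were Srebf1, which encodes the lipogenic transcription factor SREBP-1 (89.8 CPM in A226Y against 209 CPM in WT, −1.22, SE 0.26, adjusted p = 0.00551), and Flii, an actin-binding protein gene (−0.23, SE 0.05, adjusted p = 0.0107). The other 11 included Tom1l2, which lies next to Srebf1 (0.08, adjusted p = 0.463), and Alkbh5, an RNA demethylase gene (0.09, adjusted p = 0.333).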
